A study of Homo sapiens with 6 samples.

Results

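The 41 genes described here encode proteins that bind microtubules and set how stable they are, and they were taken from the 58735 genes of the deposited count table by exact match of the gene symbol to a fixed list. All 41 had a row. They fall into 10 classes: structural microtubule-associated proteins (MAPs), the MAP7 family, end-binding proteins, other plus-end proteins, stathmins, the doublecortin family, minus-end proteins, EML proteins, severing enzymes and spindle organisers. RNAseq had been performed in 3 replicates of C4-2B, a castration resistant line established from LNCaP prostate cancer cells, and in 3 replicates of RC4-2B, a subclone that the study selected from C4-2B with rising concentrations of the taxane cabazitaxel (CBZ). The labels give RPMI-1640 with fetal bovine serum for both lines, whereas the study's RNAseq methods name charcoal-stripped serum as well, so the serum of the sequenced cultures is not settled. No drug was named for these cultures. RC4-2B is 1 resistant line, so changes that came with CBZ selection and changes that came with subcloning cannot be told apart.

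Microtubules grow and shrink by adding and losing tubulin dimers, mainly at their plus ends. Structural MAPs and doublecortins bind along the lattice and stabilise it, end-binding proteins follow the growing plus end and recruit partners there, and CAMSAP proteins hold the minus end. Stathmins sequester tubulin dimers and favour shrinkage, while katanins, spastin and fidgetin cut the lattice. Taxanes bind tubulin inside the microtubule and block its depolymerization, which is why the genes that tune microtubule stability are of interest in a taxane-resistant line.

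Libraries held 15707134 to 18052517 counts on genes, so that 3 counts, taken as the detection floor, corresponded to 0.170 to 0.188 CPM (counts scaled to a common library size by TMM). RC4-2B replicate 2 stood apart from the other RC4-2B libraries, with an SD of the log2 difference per gene of 0.63 and 0.55 against 0.17 to 0.24 for all other pairs within a line. The luminal prostate markers KRT8, KRT18, FOLH1, EPCAM, TMPRSS2 and KLK3 passed the filter on low counts, and of these TMPRSS2 and KLK3 fell in RC4-2B (edgeR adjusted p = 0.019 and 0.000154). The KLK3 call held with any 1 library left out, whereas that of TMPRSS2 was lost without C4-2B replicate 1, 2 or 3 or RC4-2B replicate 3 (edgeR adjusted p = 0.0538 to 0.119). Of 12 neuroendocrine and neuronal markers, 5 were at or under 3 counts in every library, and 4 of these 5 had no counts. The summed level of the list was 9.11 to 11.2 CPM in C4-2B and 7.64 to 11.5 CPM in RC4-2B. Of 8 stromal, endothelial and immune markers, 4 were at or under 3 counts in every library, and 3 of these 4 had no counts. Their summed level was 38.3 to 42.1 CPM in C4-2B and 43.5 to 53.3 CPM in RC4-2B. VIM, COL1A1 and VWF passed the filter, and the main edgeR fit called none of them (adjusted p = 0.0645 to 0.361). Without overlap, VIM was higher and VWF lower in RC4-2B, while COL1A1 overlapped. DESeq2 called VWF lower (adjusted p = 0.016). Without RC4-2B replicate 2 edgeR called VWF lower (adjusted p = 0.0131) and COL1A1 higher (0.0326). With the GC correction described further on it called COL1A1 higher (adjusted p = 0.0181).

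Most of these genes were expressed at moderate levels, and a few of them carried most of the summed level. In FPKM, the authors' length- and depth-scaled unit, 5 genes averaged at least 20, 17 at least 5 and 30 at least 1 over the 6 libraries. MAPRE1, which encodes the end-binding protein EB1, had the highest level, between 67.5 and 81.7 FPKM. CKAP5, which encodes the microtubule polymerase ch-TOG, came next at 31.4 to 55.1 FPKM, and these ranges did not overlap each other or that of the next gene. MAP4 (23.0 to 26.0 FPKM), STMN1 (22.3 to 26.4 FPKM) and MAP7D1 (13.0 to 27.0 FPKM) followed, and their ranges overlapped, so that the order among these genes is not resolved. MAP2 (1.88 to 5.05 FPKM) and MAP1A (0.372 to 1.29 FPKM), both known from neurons, were expressed. Some other genes best known from neurons were at the bottom. MAP6 and STMN2 had no counts in any library, and STMN4, DCX and DCLK1 had at most 2 counts in any library. At this depth a level below the floor of 0.170 to 0.188 CPM was not detectable, so these genes may still be expressed at lower levels. CLIP4, with 0, 1 and 1 counts in C4-2B against 1, 4 and 4 counts in RC4-2B, was the only other gene removed by the filter, and 35 of the 41 genes were tested.

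**Figure D1:**
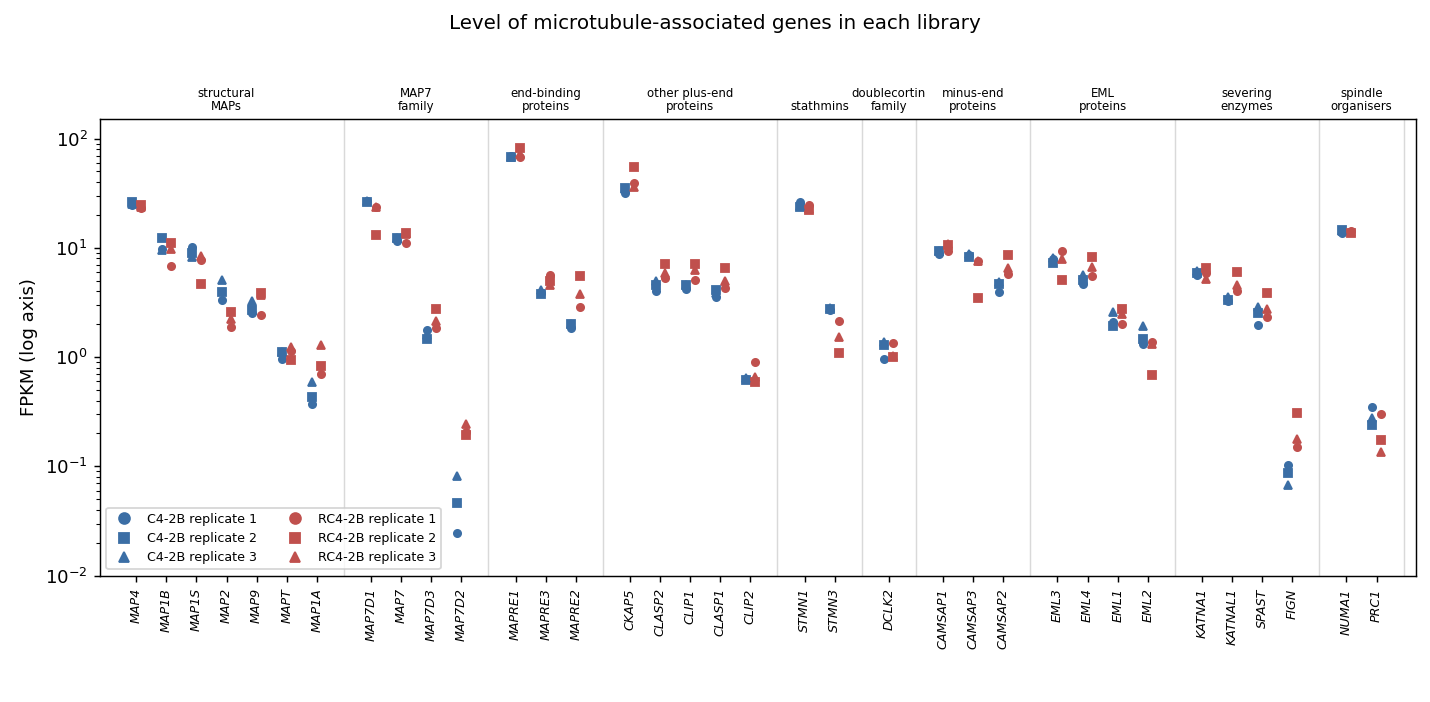
Level of each gene in FPKM (log axis) in the 3 C4-2B libraries (blue) and the 3 RC4-2B libraries (red), grouped by class. The 6 genes that did not pass the filter on low counts are not drawn. MAPRE1 is highest at 67.5 to 81.7 FPKM, and for most genes the red and blue points lie close together.

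The comparison of RC4-2B with C4-2B asks whether the resistant line carries a different set of microtubule regulators. In edgeR's quasi-likelihood test, with p-values adjusted (Benjamini-Hochberg) over all 15054 tested genes, 1 of the 35 tested genes fell in RC4-2B (MAP2) and 0 were higher past the threshold of 0.05. Over all tested genes 1.08% were called higher and 0.903% lower, so a single call among 35 genes is close to the background. In bulk samples a change in RNA per cell and a change in the share of cells that express a gene cannot be told apart. At an unadjusted p under 0.05 the same test counted 12 of the 35 genes higher (34.3%) and 2 lower (5.71%), against 12.0% and 9.42% of all tested genes. The groups did not overlap in CPM with RC4-2B higher for 13 genes (37.1%, background 17.0%) and with RC4-2B lower for 5 genes (14.3%, background 17.1%). Point estimates were above 0 for 21 of the 35 genes, against 50.7% of all tested genes, and its median was 0.10 against 0.01 over all tested genes. MAP7D2 passed the filter only through its RC4-2B libraries, so it had to differ and gives no support to these counts or to those under the other settings.

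DESeq2, the tool named in the study's methods, called 3 of these genes higher (MAP1A, MAPRE2 and CAMSAP2; background 3.28%) and 2 lower (MAP2 and STMN3; background 2.64%). Without RC4-2B replicate 2, edgeR called 6 higher (17.1%, background 6.5%) and 2 lower (background 6.02%). The 6 were MAPRE2, MAP7D2, MAP1A, CAMSAP2, KATNAL1 and CLIP1, and the 2 were MAP2 and STMN3. Leaving aside MAP7D2, 5 of 34 were called higher (14.7%). Without C4-2B replicate 1, 2 or 3, or without RC4-2B replicate 3, no gene of the 41 was called in either direction, while 8 to 10 of the 35 genes had an unadjusted p under 0.05 with RC4-2B higher (background 6.39% to 10.0%) and 2 or 3 with RC4-2B lower (background 4.59% to 7.87%). In these fits 0.0838% to 0.187% of all tested genes were called higher and 0.2% to 0.316% lower. Without RC4-2B replicate 1, MAPRE2 was called higher (background 1.63%) and STMN3 lower (background 1.44%). With no filter beyond 1 count in all, edgeR called FIGN besides MAPRE2, MAP7D2, MAP1A and CAMSAP2 higher (5 genes, background 2.07%) and MAP2 and STMN3 lower (2 genes, background 2.22%).

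Only MAP2 was called with upper-quartile scaling (background 1.18% higher and 0.923% lower), with RLE scaling (1.03% and 0.97%) and with a filter on a mean of at least 10 counts (1.06% and 0.877%). On FPKM, limma called none of these genes, whether on log2(FPKM + 1) (background 0.384% higher and 0.484% lower), on log2(FPKM + 0.1) (0.325% and 0.392%) or on log2(FPKM + 1) without a filter (0.0447% and 0.079%), so that the MAP2 call was lost there too. These fits changed the unit and the test together. At an unadjusted p under 0.05 the filtered fits counted 7 of 30 genes higher and 2 lower (background 10.5% higher and 9.53% to 10.1% lower), and the unfiltered fit 9 of 39 higher and 2 lower (6.49% and 6.05%). With the replicate number as a block edgeR called 0 of these genes, against 0.365% higher and 0.492% lower of all tested genes. At an unadjusted p under 0.05 the block fit counted 11 of 35 higher (background 11.3%) and 4 lower (12.0%). With the block and the GC correction described further on it called 4 higher (background 4.29%) and 1 lower (3.75%). An absolute log2 fold change of at least 1 was reached by 3 of the 35 genes (MAPRE2, MAP7D2 and FIGN), where 4.3% of all tested genes reached it.

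**Figure D2:**
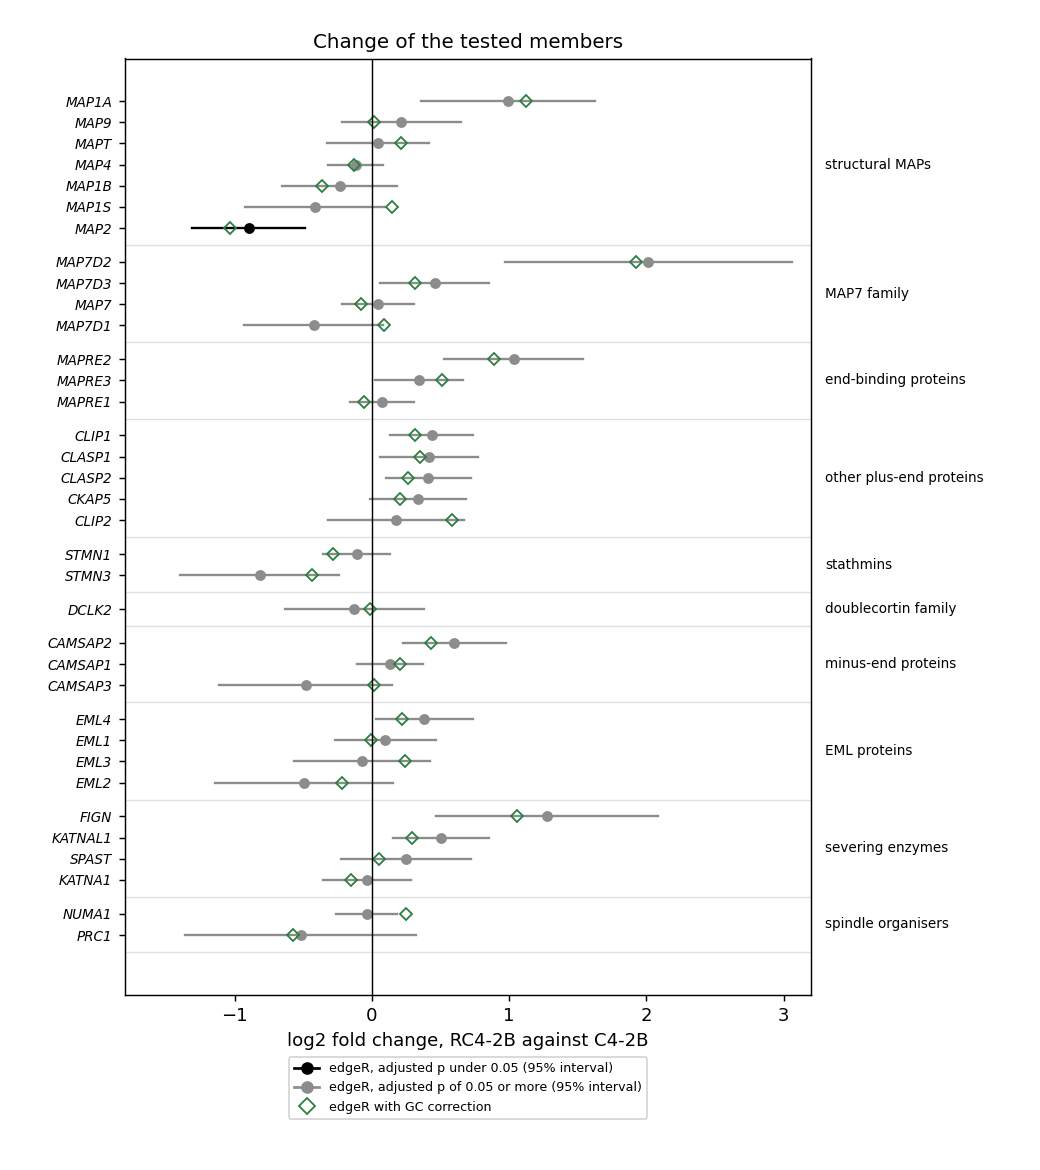
Log2 fold change (RC4-2B against C4-2B) of the 35 tested genes by class, as circles with 95% intervals from edgeR (n = 3 libraries per line), and as open diamonds after a correction for transcript GC content. Only MAP2 (black, -0.90) passed the adjusted threshold, and all 5 tested genes among the other plus-end proteins lie above 0.

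Among the structural MAPs, MAP2 fell and MAP1A was higher without passing the main threshold. MAP2, a lattice-binding stabiliser best known from dendrites (chromosome 2, 209424058 to 209734118, GRCh38), had 42.9, 51.0 and 64.7 CPM in C4-2B and 24.3, 32.3 and 28.6 CPM in RC4-2B. Every RC4-2B library was below every C4-2B library. Its log2 fold change was -0.90 (SE 0.18, 95% interval -1.31 to -0.49, edgeR adjusted p = 0.0478). DESeq2 gave an adjusted p of 0.000753, and over the 18 alternative settings the adjusted p lay between 4.81e-05 and 0.23. The call was lost without C4-2B replicate 1 (edgeR adjusted p = 0.114), 2 (0.18) or 3 (0.19) and without RC4-2B replicate 1 (0.063) or 3 (0.144), while the log2 fold change in these fits stayed between -1.03 and -0.73. It was also lost in the limma fits on FPKM (adjusted p = 0.123 to 0.23). MAP2 supplied 7.67% ± 1.67 (SD, n = 3) of the summed FPKM of the structural MAPs in C4-2B and 4.71% ± 0.578 in RC4-2B.

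MAP1A, another lattice-binding protein of neurons, had 4.42, 5.15 and 6.95 CPM in C4-2B and 8.25, 9.46 and 15.2 CPM in RC4-2B. All RC4-2B values were above all C4-2B values, and RC4-2B replicate 3 was the highest. Its log2 fold change was 0.99 (SE 0.28, edgeR adjusted p = 0.107). DESeq2 gave an adjusted p of 0.0238, and over the 16 alternatives that included MAP1A the adjusted p lay between 0.00479 and 0.405. MAP1A and MAP2 therefore had point estimates of opposite sign, and the level of MAP1A was lower than that of MAP2 in every library (0.372 to 1.29 FPKM against 1.88 to 5.05 FPKM).

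MAP4, the main structural MAP outside neurons, had 416, 436 and 416 CPM in C4-2B and 384, 393 and 391 CPM in RC4-2B. The RC4-2B values were all slightly lower, with a log2 fold change of -0.12 (95% interval -0.32 to 0.08, edgeR adjusted p = 0.428). MAP4 made up 47.4% ± 0.566 (SD, n = 3) of the summed FPKM of the structural MAPs in C4-2B and 50.1% ± 2.9 in RC4-2B. MAPT, which encodes tau, was at 0.94 to 1.25 FPKM and its log2 fold change was 0.05 (95% interval -0.33 to 0.42). The log2 fold changes of MAP1B, MAP1S and MAP9, other lattice-binding proteins, were -0.24, -0.42 and 0.21 and none passed the threshold. The estimate for MAP1S turned to 0.15 after the GC correction.

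The first RefSeq promoter windows of MAP2 and of MAPRE2, the end-binding gene described next, are shown because these were the genes called in the most settings. Each is the 250 bases before a transcription start, on the plus strand of GRCh38.p14, with capitals marking a GC box (GGGCGG or CCGCCC) or TATAAA (or TTTATA) on either strand. The table held 3 windows for MAP2 and 2 for MAPRE2, and the first listed was used for each. Both lie inside the gene span of the count table, and RNAseq counts per gene do not show which start was used.
MAP2, chr2:209661246-209661495: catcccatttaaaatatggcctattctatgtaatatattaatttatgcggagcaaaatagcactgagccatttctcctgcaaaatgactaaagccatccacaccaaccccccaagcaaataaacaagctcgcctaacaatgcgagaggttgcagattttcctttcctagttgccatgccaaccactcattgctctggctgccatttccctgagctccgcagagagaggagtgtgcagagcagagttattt
MAPRE2, chr18:35041163-35041412: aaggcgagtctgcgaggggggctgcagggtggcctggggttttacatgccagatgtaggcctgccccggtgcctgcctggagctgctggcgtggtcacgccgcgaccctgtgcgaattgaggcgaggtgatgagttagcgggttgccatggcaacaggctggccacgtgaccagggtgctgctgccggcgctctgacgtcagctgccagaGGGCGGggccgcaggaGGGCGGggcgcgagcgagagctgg
The MAP2 window held neither motif and its GC content was 44.4%, whereas the MAPRE2 window held 2 GC boxes and its GC content was 69.2%. Of 27305 genes with a window, 42.3% had a GC box and 11.1% a TATAAA. Of the 36 genes of the 41 with a window, 25 had a GC box (69.4%) and 3 a TATAAA (8.33%). The 27305 genes were not limited to genes expressed in these cells, so the shares do not compare like genes. The difference was not tested.

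In the end-binding family the paralogs differed in level and in estimate. MAPRE2, which encodes EB2 (chromosome 18, 34976928 to 35143470, GRCh38), had 12.6, 13.9 and 13.7 CPM in C4-2B and 19.7, 36.6 and 25.9 CPM in RC4-2B. The groups did not overlap, and RC4-2B replicate 2 was the highest library. Its log2 fold change was 1.03 (SE 0.22, 95% interval 0.53 to 1.54), which missed the threshold in edgeR (adjusted p = 0.0571) and passed it in DESeq2 (adjusted p = 0.00145). Over the 18 alternatives the adjusted p lay between 0.000586 and 0.282, and 7 of them passed. Without RC4-2B replicate 2 the log2 fold change was 0.77 (edgeR adjusted p = 0.00194), and without RC4-2B replicate 1 it was 1.23 (0.028). The 230 tested genes on chromosome 18 had a median log2 fold change of -0.18, so the estimate for MAPRE2 ran against that of its chromosome.

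MAPRE1 had 204, 200 and 199 CPM in C4-2B and 198, 229 and 207 CPM in RC4-2B. The groups overlapped and the log2 fold change was 0.07 (95% interval -0.16 to 0.30, edgeR adjusted p = 0.67). MAPRE3, which encodes EB3, had a log2 fold change of 0.35 (edgeR adjusted p = 0.21) with all RC4-2B libraries above all C4-2B libraries. With the GC correction the estimate for MAPRE3 was 0.51 and passed (edgeR adjusted p = 0.0402, 0.0286 to 0.512 over the 18 alternatives). MAPRE1 made up 92.1% ± 0.275 (SD, n = 3) of the family's summed FPKM in C4-2B and 89.0% ± 0.478 in RC4-2B, and the summed level was 74.6 ± 0.663 FPKM in C4-2B and 82.7 ± 8.52 FPKM in RC4-2B. MAPRE2 supplied 2.61% ± 0.148 of the sum in C4-2B and 4.83% ± 1.13 in RC4-2B.

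The other plus-end proteins moved in 1 direction as point estimates, although none passed the adjusted threshold. CKAP5 had 300, 337 and 327 CPM in C4-2B and 371, 503 and 342 CPM in RC4-2B. RC4-2B replicate 2 was well above the other libraries, while the other RC4-2B values were also above all C4-2B values. Its log2 fold change was 0.34 (95% interval -0.01 to 0.68, edgeR adjusted p = 0.242) and it was 0.15 without RC4-2B replicate 2. CLIP1, which links growing plus ends to cargo, and CLASP1 and CLASP2, which promote rescue of shrinking microtubules, had log2 fold changes of 0.44, 0.42 and 0.41 (edgeR adjusted p = 0.13 to 0.189). In all 3 the groups did not overlap, and without RC4-2B replicate 2 the estimates were 0.33, 0.25 and 0.31. CLIP1 passed without RC4-2B replicate 2, with or without the GC correction, and in no fit that kept this library. CLIP2 had a log2 fold change of 0.17 (95% interval -0.32 to 0.67) with overlapping groups. With the GC correction described further on, the estimate for CLIP2 was 0.58 (edgeR adjusted p = 0.101). With that correction and without RC4-2B replicate 2 it was 0.44 (edgeR adjusted p = 0.141). The summed FPKM of the class was 43.9, 49.1 and 48.5 in C4-2B, against 54.4, 76.6 and 54.0 in RC4-2B, a log2 difference of 0.37 with groups that did not overlap (two-sided exact permutation p = 0.1, and 3 against 3 libraries allow none smaller).

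In the MAP7 family, which recruits kinesin-1 to microtubules, the low-level member MAP7D2 had the largest estimate of the 35 tested genes. MAP7D2 had 2, 4 and 7 counts in C4-2B (0.119 to 0.398 CPM) and 16, 16 and 20 counts in RC4-2B (0.912 to 1.17 CPM). The groups did not overlap, and C4-2B replicate 1 was under the detection floor. MAP7D2 passed the filter only through its RC4-2B libraries, so its size of change and its p-values give no support. Its log2 fold change was 2.01 (SE 0.46, 95% interval 0.97 to 3.06, edgeR adjusted p = 0.065), and over 16 alternatives the adjusted p lay between 0.0169 and 0.297. MAP7D1, the most abundant member of the family, had 158, 155 and 158 CPM in C4-2B and 140, 73.5 and 138 CPM in RC4-2B. RC4-2B replicate 2 was far below every other library, and the log2 fold change moved from -0.42 (edgeR adjusted p = 0.292) to -0.18 without it and to 0.09 with the GC correction. MAP7 was level, with a log2 fold change of 0.04 (95% interval -0.22 to 0.31), and MAP7D3 had 0.46 (edgeR adjusted p = 0.194) with groups that did not overlap.

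Of the stathmins, which bind free tubulin dimers, STMN1 and STMN3 were expressed. STMN1 had 185, 167 and 167 CPM in C4-2B and 173, 150 and 157 CPM in RC4-2B. The groups overlapped and the log2 fold change was -0.11 (95% interval -0.36 to 0.13, edgeR adjusted p = 0.535). STMN3 had 9.19, 9.4 and 9.39 CPM in C4-2B and 7.25, 3.53 and 5.11 CPM in RC4-2B. All RC4-2B values were lower and replicate 2 was the lowest. Its log2 fold change was -0.82 (SE 0.25, edgeR adjusted p = 0.133) and it passed in DESeq2 (adjusted p = 0.0496). Over the 18 alternatives the adjusted p of STMN3 lay between 0.0359 and 0.4, and with the GC correction the log2 fold change was -0.44.

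The balance of MAP4, a stabiliser, and STMN1, a destabiliser, was compared as a ratio of FPKM within each library. In C4-2B the ratio was 0.944, 1.10 and 1.05, and RC4-2B had 0.929, 1.10 and 1.05. The values of the lines were interleaved. The log2 ratio was 0.039 ± 0.111 (SD, n = 3) in C4-2B and 0.033 ± 0.126 in RC4-2B, a difference of -0.0056 (exact permutation test, two-sided p = 1, where the smallest p the design allows is 0.1). The ratio was not run with the GC correction described further on. With that correction the log2 fold changes were -0.13 for MAP4 and -0.28 for STMN1 (edgeR adjusted p = 0.352 and 0.23). An unchanged ratio is therefore shown only for uncorrected FPKM.

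Of the minus-end proteins, CAMSAP2 had 34.4, 40.7 and 42.3 CPM in C4-2B and 49.7, 72.2 and 56.0 CPM in RC4-2B. RC4-2B was higher in every library, most in replicate 2, with a log2 fold change of 0.60 (SE 0.16, edgeR adjusted p = 0.101). It passed in DESeq2 (adjusted p = 0.0394) and with the GC correction (0.43, edgeR adjusted p = 0.0306), within a range of 0.0135 to 0.405 over the 18 alternatives. CAMSAP1 had 85.4, 90.6 and 89.9 CPM in C4-2B and 91.3, 97.2 and 103 CPM in RC4-2B. The RC4-2B values of CAMSAP1 were slightly above those of C4-2B, with a log2 fold change of 0.13 (95% interval -0.11 to 0.37). CAMSAP3 had a log2 fold change of -0.48 (edgeR adjusted p = 0.322), which was 0.02 after the GC correction. Within the doublecortin family only DCLK2, a kinase with a microtubule-binding doublecortin domain, was expressed above the floor. DCLK2 had 4.95, 6.62 and 7.0 CPM in C4-2B and 6.94, 4.90 and 5.17 CPM in RC4-2B. These groups overlapped, and the log2 fold change was -0.13 (95% interval -0.64 to 0.38).

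The severing enzymes showed no call at the main threshold. KATNA1, the catalytic katanin subunit, had 14.6, 15.2 and 15.7 CPM in C4-2B and 15.1, 16.0 and 13.3 CPM in RC4-2B. The lines overlapped, with a log2 fold change of -0.03 (95% interval -0.36 to 0.29). KATNAL1, a katanin-like enzyme, had 29.7, 30.5 and 31.7 CPM in C4-2B and 36.6, 52.6 and 41.0 CPM in RC4-2B. RC4-2B was higher in every library, with a log2 fold change of 0.50 (SE 0.15, edgeR adjusted p = 0.128) that was 0.34 without replicate 2. FIGN, which encodes fidgetin, had 19, 17 and 13 counts in C4-2B (0.740 to 1.13 CPM) and 27, 57 and 33 counts in RC4-2B (1.69 to 3.25 CPM). The log2 fold change of FIGN was 1.28 (SE 0.35, edgeR adjusted p = 0.105), and 0.94 without RC4-2B replicate 2. SPAST, which encodes spastin, had 0.25 (95% interval -0.23 to 0.72) with overlapping groups.

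**Figure D3:**
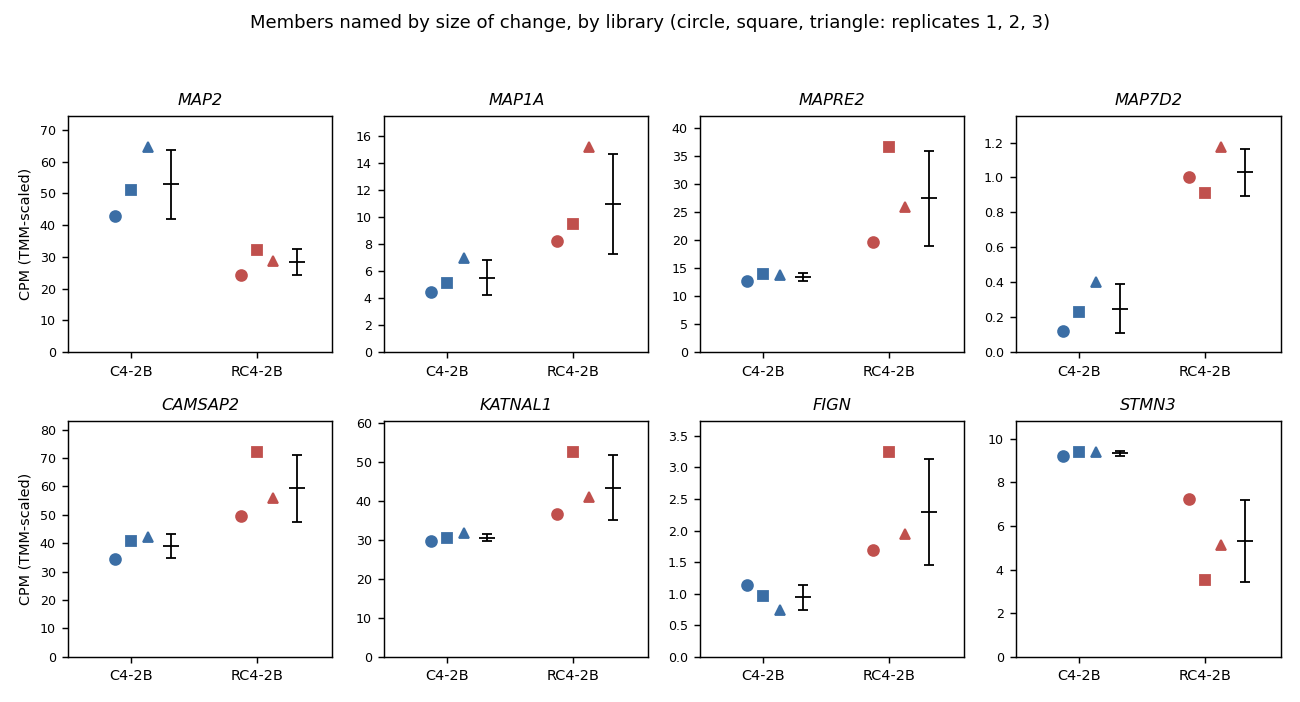
CPM (TMM-scaled, axes start at 0) of the 8 genes selected by their test or size of change, by library, with the mean and SD (n = 3) at the right of each group. MAP2 and STMN3 were lower in RC4-2B and the other 6 genes were higher, and RC4-2B replicate 2 is the highest library for MAPRE2, CAMSAP2, KATNAL1 and FIGN and the lowest for STMN3.

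Of the EML proteins, which bind microtubules, EML3 was the most abundant, with 48.7, 44.9 and 48.7 CPM in C4-2B and 57.7, 29.8 and 47.9 CPM in RC4-2B. The groups overlapped and the log2 fold change was -0.07 (95% interval -0.57 to 0.42). EML4, EML1 and EML2 had log2 fold changes of 0.38, 0.10 and -0.50, and none passed the threshold. NUMA1, which organises the spindle pole, had 231, 249 and 240 CPM in C4-2B and 245, 221 and 237 CPM in RC4-2B. These values overlapped, with a log2 fold change of -0.04 (95% interval -0.26 to 0.18). The counts of PRC1, which bundles antiparallel microtubules at the spindle midzone, were only 26 to 36 in C4-2B and 14 to 30 in RC4-2B, and 57.6% of its exonic bases are shared on the same strand with ENSG00000284946, which had 66 to 81 counts. The level of PRC1 and its log2 fold change (-0.52, edgeR adjusted p = 0.408) therefore carry uncertainty from how shared reads were counted. PRC1, NUMA1, EML2, EML3, KATNA1 and MAP9 share 34.3%, 27.3%, 14.4%, 11.8%, 9.13% and 7.63% of their exonic bases with genes on the opposite strand. The strand setting of the counting is not given in the sources used here.

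Summed by class, the FPKM of structural MAPs was 52.0, 55.6 and 52.9 in C4-2B, against 43.5, 48.6 and 50.3 in RC4-2B, lower in every RC4-2B library. The MAP7 family summed to 40.1, 40.0 and 41.0 FPKM in C4-2B, and to 36.8, 29.6 and 39.3 in RC4-2B, also without overlap. The log2 differences were -0.17 and -0.21, against 0.15 for the end-binding and 0.37 for the other plus-end proteins, and each of these 4 had a two-sided exact permutation p of 0.1 (0.25 after Benjamini-Hochberg adjustment over 10 classes). Without RC4-2B replicate 2 the differences were 0.20 for the other plus-end proteins, -0.09 for the MAP7 family and 0.06 for the end-binding proteins, and without RC4-2B replicate 1 that of the structural MAPs was -0.11. For the stathmins, doublecortins, minus-end proteins, EML proteins, severing enzymes and spindle organisers the groups overlapped, with log2 differences between -0.15 and 0.23. No class sum was run with the GC correction described further on. With that correction MAP7D1, the most abundant gene of the MAP7 family, went from a log2 fold change of -0.42 to 0.09.

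RC4-2B replicate 2 moved with the GC content of the transcripts, and this touches most of the estimates above. Over the 35 tested genes, the Spearman rank correlation between the GC content of the longest transcript and the difference of replicate 2 from the mean of replicates 1 and 3 (log2 CPM) was -0.83, compared with -0.65 over 14929 tested genes with counts in every library. These points share libraries, so the correlation describes them only. Of the 8 genes of lowest GC content (33.3% to 41.9%), 7 were higher in replicate 2 than in the mean of replicates 1 and 3, whereas 0 of the 8 genes of highest GC content (59.4% to 67.4%) were. Other libraries also differed with GC content. Over well-expressed genes the Spearman correlation with the log2 difference was -0.75 for RC4-2B replicate 2 minus 1 and -0.38 for replicate 3 minus 1. In C4-2B it was -0.30 for replicate 2 minus 1, -0.27 for 3 minus 1 and -0.04 for 3 minus 2. The correlation of GC content with the log2 fold change was -0.51 over the 35 genes in the main comparison, close to the -0.47 over the 14929 genes. Over the 35 genes it was -0.33 without replicate 2 and -0.06 after the GC correction. The correction removes the trend with this same GC content, so a value near 0 after it was built in and tests nothing.

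With the GC correction, edgeR called 5 of the 35 genes higher (14.3%, background 4.39%) and 1 lower (background 3.27%). The 5 were MAP1A, MAP7D2, MAPRE2, MAPRE3 and CAMSAP2, and MAP2 was the lower one. Leaving aside MAP7D2, 4 of 34 were called higher (11.8%). With the correction and without RC4-2B replicate 2, the calls were 6 higher (background 6.81%) and 2 lower (background 6.65%), which added CLIP1 to those higher and MAP1B to those lower. At an unadjusted p under 0.05 the corrected fit counted 13 higher (37.1%, background 13.3%) and 3 lower (8.57%, background 12.0%). MAP2 had a log2 fold change of -1.04 (edgeR adjusted p = 0.00195) in this fit, and MAP1A had 1.12 (0.0282). The GC-rich genes MAP1S, MAP7D1 and CAMSAP3, which were below 0 in the main comparison, were at 0.15, 0.09 and 0.02. NUMA1 and EML3 likewise turned from below 0 to 0.25 and 0.24. EML2 and STMN3, also GC-rich, stayed below 0 at -0.22 and -0.44.

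**Figure D4:**
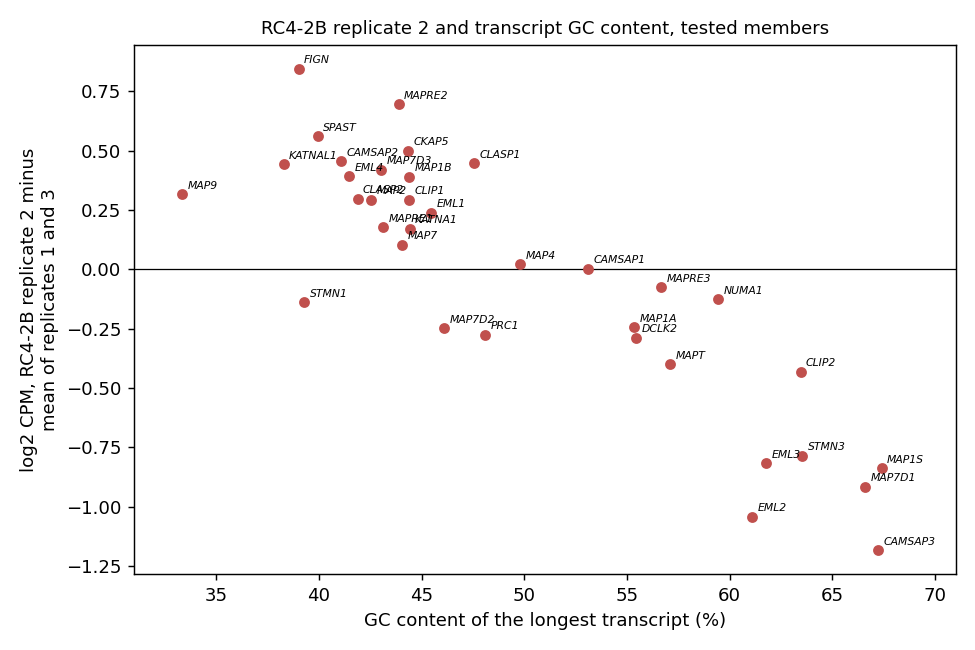
Difference of RC4-2B replicate 2 from the mean of replicates 1 and 3 (log2 CPM) against the GC content of the longest transcript (%) for the 35 tested genes. Points fall from above 0 at low GC content to below -1 for EML2 and CAMSAP3, with a Spearman correlation of -0.83.

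A wider list of 92 other microtubule-associated genes, of which 91 had a row and 73 were tested, held 3 genes called higher (4.11%, background 1.08%) and 0 called lower in edgeR, against a background of 0.903%. At an unadjusted p under 0.05, 15 were higher (20.5%, background 12.0%) and 3 lower (4.11%, background 9.42%). MACF1, a spectraplakin that links microtubules to actin, had 50.3, 63.9 and 59.1 CPM in C4-2B and 82.5, 106 and 101 CPM in RC4-2B. It rose in every resistant library, and its log2 fold change was 0.74 (SE 0.14, edgeR adjusted p = 0.0414). NAV1, a plus-end tracking protein, rose from 23.8, 25.6 and 27.4 CPM to 39.8, 37.7 and 41.6 CPM, a log2 fold change of 0.63 (SE 0.12, edgeR adjusted p = 0.0395). PAFAH1B1, which encodes the dynein regulator LIS1, rose from 121, 121 and 120 CPM to 163, 182 and 169 CPM, a log2 fold change of 0.51 (SE 0.10, edgeR adjusted p = 0.0435). The 944 tested genes on chromosome 17, where PAFAH1B1 lies, had a median log2 fold change of 0.15. All 3 calls were lost without C4-2B replicate 1, 2 or 3 or RC4-2B replicate 3 (edgeR adjusted p = 0.139 to 0.249), and that of NAV1 also without RC4-2B replicate 1 (0.0525). Without RC4-2B replicate 2 the edgeR adjusted p of the 3 genes lay between 0.000729 and 0.00136. In limma on log2(FPKM + 1) none of the 3 passed (adjusted p = 0.077 to 0.143). DESeq2 called 5 of the wider list higher and 0 lower (background 3.28% and 2.64%). At an unadjusted p under 0.05 it counted 14 higher and 3 lower. The background there was 5.74% higher and 5.76% lower of 29108 genes, which include genes of low count. Without RC4-2B replicate 2 edgeR called 8 higher and 2 lower (background 6.5% and 6.02%). The median log2 fold change of the wider list was 0.07 in the main comparison. It was 0.04 with the GC correction, 0.02 without RC4-2B replicate 2 and -0.01 with both. With the GC correction edgeR called 5 higher (6.85%, background 4.39%) and 1 lower (background 3.27%). At an unadjusted p under 0.05 that fit counted 15 higher (20.5%, background 13.3%) and 5 lower (6.85%, background 12.0%).

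The 15 proliferation genes, which include spindle and mitosis genes, summed to 2628 to 3008 CPM in C4-2B and 2826 to 3263 CPM in RC4-2B. Of these, 1 was called higher (TOP2A, background 1.08%) and 0 lower (background 0.903%). At an unadjusted p under 0.05, 4 were higher (background 12.0%) and 1 lower (background 9.42%). The TOP2A call was lost without C4-2B replicate 1, 2 or 3 or RC4-2B replicate 3 (edgeR adjusted p = 0.0558 to 0.138). The part of proliferation in the values of the spindle genes was not tested.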

How the data were processed

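RNAseq libraries of C4-2B and RC4-2B (3 biological replicates each, as the labels state) were used. Per the labels and methods, reads had been mapped with STAR to GRCh38 (version not given in the sources used here) and the authors deposited whole read counts per gene, without normalization. The deposited FPKM values are the authors' scaling of reads by gene length and library size. The counting program, its strand setting and the annotation release are not given in the sources used here.

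Counts were tested in R 4.3.3 with edgeR 4.0.16 (TMM scaling, filterByExpr with a minimum of 10 counts, glmQLFit and glmQLFTest without robust estimation, cell line as the only term, Benjamini-Hochberg over 15054 genes, threshold 0.05). The standard error was taken as the size of the log2 fold change over the root of its F statistic. Levels between genes were compared in FPKM only. Single values and class sums were compared by exact permutation tests. Alternatives were RLE and upper-quartile scaling, other filters, DESeq2 1.42.0, limma 3.58.1 on log2(FPKM + 1) and log2(FPKM + 0.1) (FPKM of at least 1 in 3 libraries, or no filter), the replicate number as a block, a GC correction (lowess, span 0.2, longest transcript of GENCODE 44, known for 99.6% of tested genes), this correction with the block, and each library left out. The GC correction without RC4-2B replicate 2 was added after the data were seen. The fit was also run on simulated counts with planted changes. These held no GC trend and no library that stood apart, so that run does not cover those features of the data. Within a line, each pair of libraries lay further apart than sampling noise (chi-square per gene 3.17 to 58.7). The depth of 15707134 to 18052517 counts per library sets the detection floor.

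Per-library values are given for genes called by edgeR or DESeq2, tested genes with an absolute log2 fold change of at least 1, tested genes whose groups do not overlap with at least 0.5, MAP4, STMN1, and the highest gene of each class in FPKM. Of the wider list, genes called by edgeR are named. Some genes of the marker lists are not reported here. The members and lists were chosen with earlier results of these data known. Promoter windows are from RefSeq (GRCh38.p14). Coordinates are those of the deposited table, and 16 of the 41 gene spans equal those of GENCODE 44.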

Additional observations from a re-analysis of the deposited data

How the results depend on the processing

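The count of members called depended on the setting. Against 0 higher and 1 lower, edgeR without a filter beyond 1 count called 5 higher and 2 lower, DESeq2 3 and 2, the GC correction 5 and 1, and the GC correction without RC4-2B replicate 2, chosen after seeing the data, 6 and 2. The 3 limma fits called 0 in either direction, with the counts at an unadjusted p given beside the main result. RLE and upper-quartile scaling and a mean of at least 10 counts left 0 and 1. Leaving out 1 library gave 0 to 6 higher and 0 to 2 lower, the most without RC4-2B replicate 2. The cause of these differences was not tested.

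The replicate numbers were not taken as pairing the samples, because the correlations of same-numbered deviations were 0.32, 0.18 and -0.07, and not every library correlated best with its own number. The replicate block called 0 higher and 0 lower, with 11 higher and 4 lower at an unadjusted p under 0.05, and MAP2 had an adjusted p of 0.0512. Under the block NAV1 (0.0744) and PAFAH1B1 (0.0826) of the wider list also missed the threshold, and MACF1 passed (0.0437). The GC correction with the replicate block called 4 higher and 1 lower.

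Over 620 values of single genes under the alternatives, 546 kept direction and side of the threshold, 35 passed it in addition, 9 no longer passed it (all MAP2) and 30 changed sign. No sign change was of a called gene. With the GC correction, the same with the replicate block, and the same without RC4-2B replicate 2, the log2 fold changes became 0.149, 0.143 and 0.00676 for MAP1S, -0.0772, -0.0804 and -0.0425 for MAP7, -0.0585, -0.0583 and -0.0408 for MAPRE1, -0.00907, -0.00387 and -0.035 for EML1, 0.239, 0.237 and 0.264 for EML3 and 0.245, 0.232 and 0.085 for NUMA1. In the first and second of these fits they became 0.0888 and 0.085 for MAP7D1 and 0.0171 and 0.0177 for CAMSAP3, and in the third -0.0355 for SPAST. Leaving out 1 library moved MAPT between -0.0554 and 0.168, MAP7 between -0.00384 and 0.125, CLIP2 between -0.0375 and 0.307, EML3 between -0.284 and 0.153, KATNA1 between -0.094 and 0.0358 and NUMA1 between -0.0674 and 0.0027. It moved the log2 ratio of MAP4 to STMN1 between -0.0667 and 0.0641 and the summed FPKM of the spindle organisers between -0.0483 and 0.00133 on the log2 scale. The other 9 class sums kept their direction when any 1 library was left out and when FPKM were rescaled by TMM. Neither the class sums nor the ratio of MAP4 to STMN1 were run with the GC correction. With 3 libraries per line the exact tests could not go below 0.1, and changes of genes under 3 counts per library were not detectable at this depth.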
